A study of Caenorhabditis elegans with 9 samples.

Results

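The insulin-like peptide genes of *Caenorhabditis elegans* were taken as every gene whose WormBase symbol is *ins-* followed by a number, plus *daf-28*. This rule found 39 of the 20541 genes in the files, and all 39 were present in each of the 9 libraries as listed features. The rule used names and no measured value.

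Insulin-like peptides are small secreted ligands, made mostly by neurons and the intestine and also by the hypodermis, muscle and other tissues. They are cut from precursors, packed into dense-core vesicles and released, and they bind DAF-2, the single insulin receptor of the worm. Agonists switch on a kinase cascade through AGE-1 (a PI3 kinase), PDK-1 and AKT-1, which keeps the FOXO factor DAF-16 out of the nucleus, and antagonists do the reverse. The pathway governs dauer arrest, larval growth, lifespan and resistance to stress and bacterial pathogens.

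RNA-Seq was done on whole worms, with 3 libraries in each of 3 groups. The groups were wild type (WT) worms exposed to *Pseudomonas aeruginosa* PA14, a pathogen that colonizes the intestine, *egl-44(mt2247)* worms on *Escherichia coli* OP50, and WT worms on *E. coli* OP50, the standard food. EGL-44 is the worm's TEAD transcription factor, the DNA-binding partner of YAP-1. Per the labels and the methods of the study, worms were kept on OP50 at 20°C, moved as young adults, held for 24 h at 25°C on the assigned bacteria and labelled as adults. PA14 was compared with OP50 in WT worms to ask which genes respond to infection, and *egl-44* worms were compared with WT worms on the same food. No *egl-44* library on PA14 was analysed here, and both comparisons use the same 3 WT libraries on OP50. The labels do not say whether replicates were separate cultures, so p-values measure the spread between these libraries, which may be technical.

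The values are FPKM, read counts divided by transcript length and by library size, so levels can be set side by side between genes, given the lengths used. Lengths recovered from the values departed from the annotated exon lengths for some members. They were 366 against 766 bp for *daf-28*, 512 against 955 bp for *ins-37* and 375 against 310 bp for *ins-27*. Ranks and shares between genes depend on these lengths. Whole reads recovered from the steps between FPKM values gave 14084626 to 16320443 reads for WT on PA14, 13638251 to 17831389 for *egl-44* and 14898657 to 17293200 for WT on OP50. A single read on a gene of 500 bp was worth 0.112 to 0.147 FPKM. The 39 genes together held 1634 to 2361 reads in WT on PA14, 4496 to 5937 in *egl-44* and 1408 to 1779 in WT on OP50. These are counting limits only, because reads without molecular identifiers are not independent molecules.

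Markers went against the adult label of the *egl-44* libraries, which bears on every comparison with them. The summed FPKM of 6 yolk protein genes was 9.55 to 25.2 in *egl-44* and 1893 to 5999 in WT on OP50. Sums over 7 oocyte genes were 12.4 to 36.6 in *egl-44* and 823 to 2100 in WT, and over 6 sperm genes 2.50 to 56.4 in *egl-44* and 1248 to 1419 in WT. Sums over 5 germ line genes were 56.4 to 280 in *egl-44* and 817 to 938 in WT, whereas 8 neuron genes summed to 374 to 514 in *egl-44* and 263 to 298 in WT. Genes of the hypodermis and adult cuticle list moved in opposite directions. *col-19* averaged 4.55 FPKM in *egl-44* and 1850 FPKM in WT on OP50, and *col-7* 0.592 and 241 FPKM. In the same order, *dpy-7* averaged 281 and 18.3 FPKM, *rol-6* 422 and 67.3 FPKM and *dpy-13* 2962 and 847 FPKM, while *bli-1* overlapped. Loss of *egl-44* and a difference in stage or tissue content of the libraries cannot be told apart here. In bulk RNA fewer cells of a type and less RNA per cell cannot be told apart either. The *egl-44* libraries carry sample numbers well apart from those of the WT libraries. The labels do not say whether the 2 sets were prepared together, so a difference in preparation cannot be told apart from genotype. The mRNA of *egl-44* itself was 32.5, 37.8 and 28.2 FPKM in *egl-44* worms and 16.11, 21.5 and 15.97 FPKM in WT on OP50, so its level does not check the genotype. Yolk and oocyte sums also differed between replicates of both WT groups. In replicates 1, 2 and 3 the yolk sums were 1893, 3236 and 5999 FPKM in WT on OP50. On PA14 they were 5556, 5614 and 1870 FPKM. Oocyte sums were 823, 1244 and 2100 FPKM in WT on OP50 and 2544, 3004 and 1493 FPKM on PA14. The part of this spread in the PA14 comparison was not tested. Among the PA14 libraries, replicate 2 stood apart, with 8 early embryo genes summing to 16.51 FPKM against 5.28 and 3.31 FPKM in PA14 replicates 1 and 3 and 0.9596 to 2.89 FPKM in WT on OP50. Its 5 intestinal genes summed to 474 FPKM, against 1174 and 1152 FPKM in replicates 1 and 3. Most of that gap was *act-5*, an intestinal actin, at 123 FPKM against 711 and 624 FPKM, whereas *ges-1*, a gut esterase, was higher in replicate 2, at 44.3 FPKM against 21.6 and 18.4 FPKM.

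**Figure D1:**
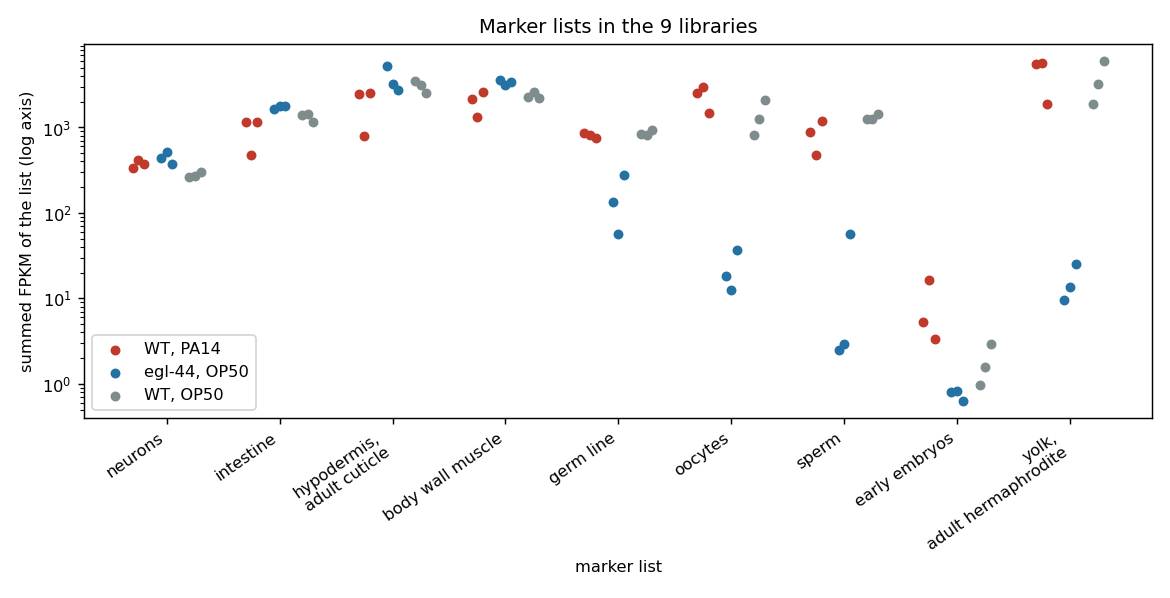
Summed FPKM (log axis) of 9 lists of marker genes, with a point for each of the 3 libraries of WT on PA14, *egl-44* on OP50 and WT on OP50. The *egl-44* yolk sums of 9.55 to 25.2 lie below the WT sums of 1893 to 5999, and PA14 replicate 2 has the highest early embryo sum, 16.51. The hypodermis and adult cuticle sums of *egl-44* and WT on OP50 overlap, although single genes of that list moved in opposite directions.

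The genes are compact and many sit side by side. On the WBcel235 annotation their summed exons spanned 284 to 955 bp, with a median of 429 bp, and 15 of the 39 were on chromosome II and 10 on chromosome I. Placing neighbours within 20000 bp of each other together gave 7 clusters with 25 of the genes, and the other 14 stood alone. The largest held *ins-24* to *ins-30* on chromosome I, 7 genes over 25409 bp. On chromosome II, *ins-2*, *ins-3*, *ins-4*, *ins-5*, *ins-6* and *ins-20* lay between 5988524 and 6011321, and *ins-11*, *ins-12* and *ins-13* between 5544512 and 5557173. Also on chromosome II, *ins-19* (3126037 to 3126441, minus strand) and *ins-31* (3127041 to 3127831, plus strand) pointed away from each other with 599 bp between them. Smaller groups were *ins-14* and *ins-15* on chromosome II, *ins-21*, *ins-22* and *ins-23* on chromosome III, and *ins-7* and *ins-8* on chromosome IV. Exons of 5 members overlapped another gene, namely *ins-10*, *ins-13*, *ins-34*, *ins-36* and *ins-37*. The sources used here do not say whether the counting used strand, so for these 5 the reads of the gene and its neighbour cannot be told apart.

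Levels were modest and spread over a wide range. Averaged over the 9 libraries, 11 of the 39 genes were at 10 FPKM or more, 21 between 1 and 10 and 7 under 1, and 26 were above 0 in every library. The median of these averages was 4.71 FPKM, against 6.41 FPKM over all genes in the files. The summed level of the family was 276, 335 and 329 FPKM in WT on PA14, 824, 914 and 697 FPKM in *egl-44* and 241, 242 and 196 FPKM in WT on OP50. The leading gene differed between groups. In WT on OP50 *ins-27* led in all 3 libraries, and in *egl-44* *ins-35* led in all 3, with 44.1%, 47.3% and 29.7% of the summed level against 5.96%, 3.26% and 3.73% in WT on OP50. In the PA14 libraries the leading gene was *ins-7* in replicate 1, *ins-34* in replicate 2 and *ins-27* in replicate 3. Without *ins-35* the family still summed to 461, 482 and 490 FPKM in *egl-44*, above 226, 234 and 189 FPKM in WT on OP50.

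**Figure D2:**
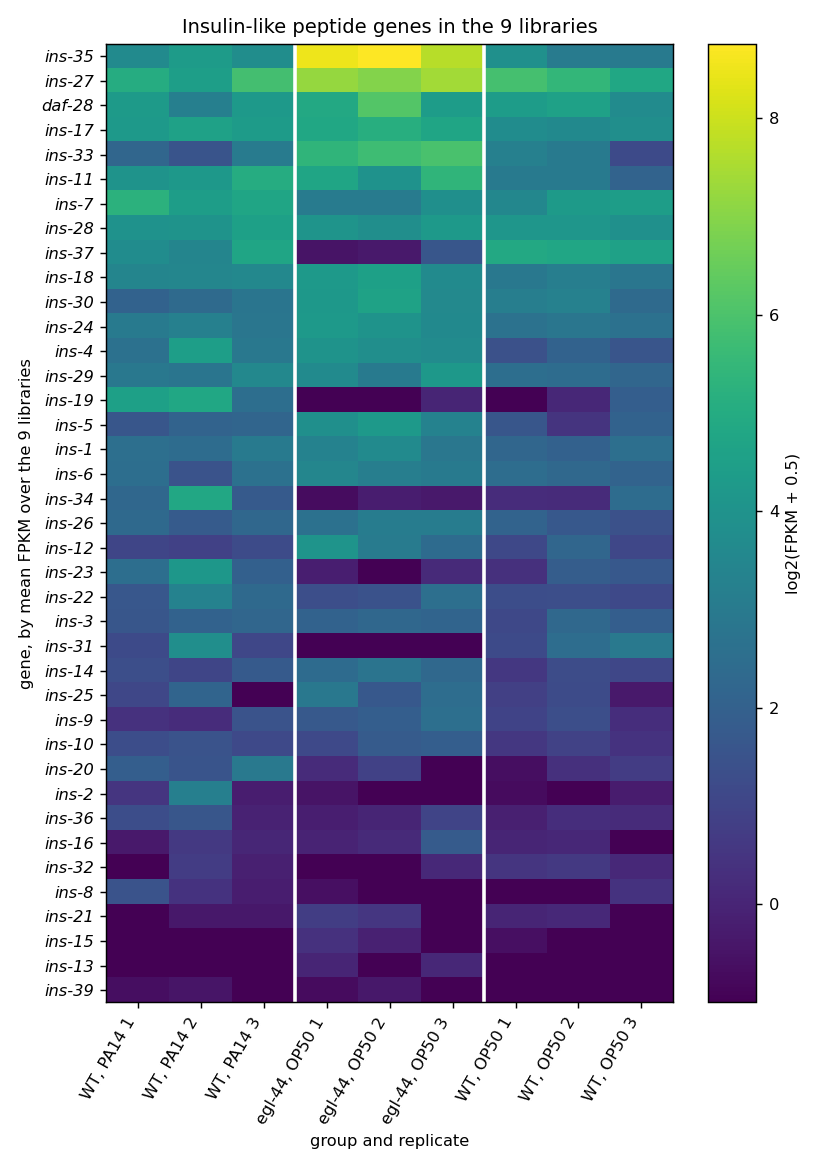
Levels of the 39 insulin-like peptide genes, as log2(FPKM + 0.5), in the 3 libraries each of WT on PA14, *egl-44* on OP50 and WT on OP50, with genes ordered by mean FPKM over the 9 libraries. In the *egl-44* columns *ins-35* is the brightest, at 207 to 432 FPKM, while *ins-31* and *ins-37* are dark, and *ins-19* is bright in the PA14 columns, at 5.21 to 27.9 FPKM, and at most 3.23 FPKM elsewhere.

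On PA14, 5 insulin-like genes were called higher than on OP50 and none lower. A call here takes an unadjusted p under 0.05 together with more than a 2-fold change in limma on log2(FPKM + 0.5), the limits the study used, and genes averaging below 0.5 FPKM in the 6 libraries were left out. Of the 39 genes 34 passed this filter, and *ins-13*, *ins-15*, *ins-16*, *ins-21* and *ins-39* did not. Over all 15760 genes tested 8.78% were called, 6.99% higher and 1.78% lower, so 5 of 34 stands against a background of 6.99% for the higher direction. The genes called higher were *ins-19*, *ins-20*, *ins-11*, *ins-4* and *ins-22*, and none passed a Benjamini-Hochberg adjusted p of 0.05 in limma, where the smallest among the members was 0.12 and 0.857% of all genes passed, 0.73% higher and 0.127% lower. At an unadjusted p under 0.05 alone, 9 members were higher and 0 lower, against 15.7% and 4.63% of all genes tested. The 3 PA14 libraries lay above the 3 OP50 libraries for 12 members, against 23.7% of all genes tested, and below them for 0, against 6.53%. Leaving out PA14 replicate 3 took the count of called members to 9, 8 higher and 1 lower, and that of all 15692 genes then tested to 1602 higher and 993 lower. The log2 fold changes had a median of 0.47 over the 34 members and 0.25 over all genes tested. Scaling by median of ratios moved the all-gene median to 0.01, and of the genes called 52.0% were then higher, against 79.7% with the FPKM as deposited and 43.9% after quantile normalization. *ins-4*, *ins-11*, *ins-19* and *ins-20* were called higher under each of these scalings, and *ins-22* was not.

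The largest difference on PA14 was that of *ins-19*. It stood at 23.0, 27.9 and 5.21 FPKM on PA14, at 0, 0 and 0.511 FPKM in *egl-44* and at 0, 0.549 and 3.23 FPKM in WT on OP50, or 316 reads on PA14 and 22 on OP50. PA14 replicate 3 was well below the other PA14 libraries and close to OP50 replicate 3. It also had the lowest yolk and oocyte sums on PA14, and OP50 replicate 3 had the highest of WT on OP50. Whether this bears on *ins-19* was not tested. The log2 fold change was 3.64 ± 0.89 (SE, adjusted p = 0.14 in limma). Its divergent neighbour *ins-31* was not called on PA14, with 1.78, 13.6 and 1.60 FPKM on PA14 and 1.79, 5.15 and 7.27 FPKM in WT on OP50, a range that overlaps. For both genes replicate 2 was the highest PA14 library and replicate 3 the highest library of WT on OP50.

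*ins-11* is expressed in the intestine and is known from worms on PA14 as a signal that shapes learned avoidance of the bacterium. It was at 15.4, 17.98 and 32.6 FPKM on PA14, at 26.4, 15.1 and 40.8 FPKM in *egl-44* and at 7.54, 7.54 and 3.84 FPKM in WT on OP50. All PA14 libraries were above all OP50 libraries. On PA14 its log2 fold change was 1.71 ± 0.38 (SE, adjusted p = 0.12 in limma), and it stayed between 1.39 and 1.92 with any one of the 6 libraries left out. The 5 intestinal markers summed to 474 to 1174 FPKM on PA14 and 1156 to 1419 FPKM in WT on OP50. None of the 5 was called on PA14, at log2 fold changes from -1.17 (*act-5*) to 0.36 (*elt-2*). The neighbour 1369 bp upstream of *ins-11*, *ins-12*, was not higher on PA14, with 1.56, 1.35 and 1.87 FPKM on PA14 against 1.69, 4.18 and 1.60 FPKM in WT on OP50. The third gene of that cluster, *ins-13*, was listed at 0 in all 6 of these libraries.

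*ins-20* was at 3.31, 2.43 and 7.28 FPKM on PA14, at 0.654, 1.37 and 0 FPKM in *egl-44* and at 0.135, 0.782 and 1.16 FPKM in WT on OP50. Its log2 fold change on PA14 was 2.0 ± 0.52 (SE, adjusted p = 0.16 in limma), with no overlap between PA14 and OP50, although the OP50 libraries held only 14 reads together. *ins-4*, an agonist of DAF-2 made in neurons, belongs to the same cluster and was at 5.79, 21.7 and 7.08 FPKM on PA14, at 15.6, 13.6 and 12.598 FPKM in *egl-44* and at 2.21, 3.73 and 2.49 FPKM in WT on OP50. The PA14 libraries did not overlap the OP50 libraries, and PA14 replicate 2 was well above the other PA14 libraries. Its log2 fold change was 1.65 ± 0.51 (SE, adjusted p = 0.20 in limma), and 1.09 without PA14 replicate 2. The neighbours between and beside them were not called on PA14. *ins-6*, a neuronal agonist that promotes exit from dauer, was at 5.30, 2.35 and 5.71 FPKM on PA14, 10.6, 8.44 and 7.34 FPKM in *egl-44* and 5.06, 4.44 and 3.86 FPKM in WT on OP50, and *ins-3* and *ins-5* overlapped between PA14 and OP50.

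Several members were highest in PA14 replicate 2, the library with the early embryo markers, and the part of those markers in the result was not tested. *ins-22*, best known as a tagged cargo of dense-core vesicles, was at 2.62, 9.43 and 4.51 FPKM on PA14, 2.07, 2.26 and 5.39 FPKM in *egl-44* and 1.96, 2.07 and 1.73 FPKM in WT on OP50. Its log2 fold change of 1.16 ± 0.44 (SE, adjusted p = 0.23 in limma) was 0.71 without PA14 replicate 2 and then no longer called. With any one of the 6 libraries left out it was called in 1 of 6 fits. *ins-23*, the next gene along, was at 5.28, 17.6 and 3.45 FPKM on PA14 and 0.781, 3.17 and 2.74 FPKM in WT on OP50, and with a log2 fold change of 1.59 ± 0.67 (SE, unadjusted p = 0.052 in limma) it was not called. *ins-34*, an exon of which overlaps a gene on the other strand, was at 4.24, 28.4 and 2.89 FPKM on PA14 and 0.690, 0.641 and 4.92 FPKM in WT on OP50, and was not called either. *ins-2* was at 0.912, 8.66 and 0.351 FPKM on PA14 and 0.106, 0 and 0.344 FPKM in WT on OP50, and 77 of its 87 reads on PA14 came from replicate 2. Of the 8 early embryo genes, *med-1* was at 0 in PA14 replicates 2 and 3, and the list's highest gene was *pes-1*, at 5.58 FPKM in replicate 2.

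**Figure D3:**
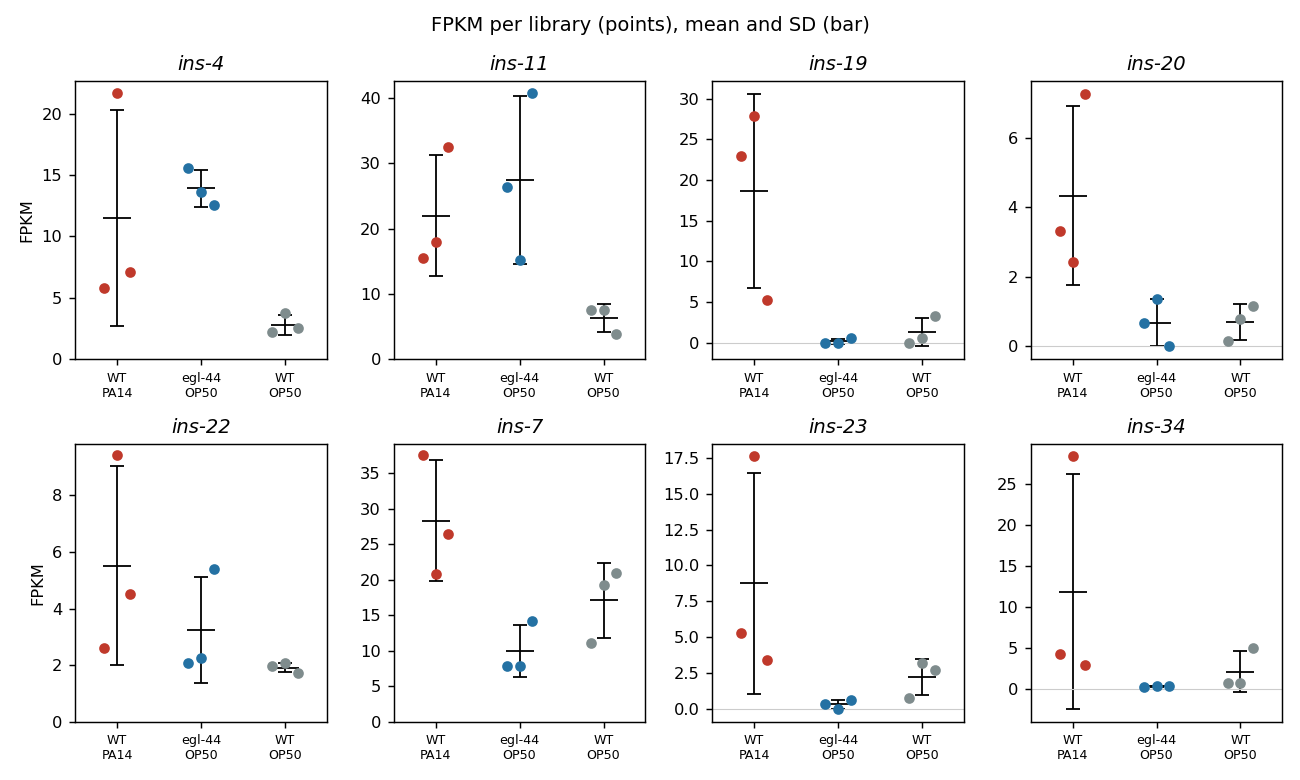
FPKM of 8 insulin-like genes in each library of WT on PA14, *egl-44* on OP50 and WT on OP50 (points), with the group mean and SD (bar, n = 3). The PA14 points of *ins-4*, *ins-11*, *ins-19* and *ins-20* lie above all 3 OP50 points, and those of *ins-22*, *ins-23* and *ins-34* are spread by replicate 2.

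Other members with known roles changed less on PA14. *ins-7* encodes an agonist that is held down by DAF-16 and that, released from neurons, is known to weaken intestinal defence against PA14. Its level was 37.6, 20.8 and 26.5 FPKM on PA14, 7.81, 7.87 and 14.1 FPKM in *egl-44* and 11.1, 19.3 and 20.9 FPKM in WT on OP50, with PA14 replicate 2 just inside the OP50 range. The log2 fold change on PA14 of 0.72 ± 0.32 (SE, unadjusted p = 0.064 in limma) was not called. *daf-28*, an agonist of sensory neurons that prevents dauer arrest, was at 19.6, 8.71 and 19.2 FPKM on PA14, 29.0, 70.7 and 20.5 FPKM in *egl-44* and 20.4, 23.7 and 12.62 FPKM in WT on OP50. The PA14 and OP50 libraries overlapped and the log2 fold change was -0.29 ± 0.39 (SE, unadjusted p = 0.48 in limma).

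*ins-1* and *ins-18* resemble human insulin most closely and act as antagonists of DAF-2 when overexpressed. *ins-1* was at 5.37, 5.02 and 7.30 FPKM on PA14, 9.61, 12.3 and 6.78 FPKM in *egl-44* and 4.15, 3.55 and 5.35 FPKM in WT on OP50. *ins-18* was at 10.4, 10.6 and 11.4 FPKM on PA14, 18.5, 22.8 and 12.3 FPKM in *egl-44* and 7.04, 8.44 and 6.58 FPKM in WT on OP50. For *ins-18* the PA14 libraries lay above the OP50 libraries, with a log2 fold change of 0.53 ± 0.21 (SE, unadjusted p = 0.040 in limma), under the 2-fold limit, and for *ins-1* they overlapped. *ins-17* was the steadiest of the higher members, at 18.997, 23.3 and 20.04 FPKM on PA14, 27.6, 33.96 and 25.9 FPKM in *egl-44* and 12.96, 12.01 and 13.8 FPKM in WT on OP50. Its log2 fold change on PA14 was 0.66 ± 0.18 (SE, unadjusted p = 0.0087 in limma), also under the limit. The 8 neuron markers summed to 334 to 412 FPKM on PA14 and 263 to 298 FPKM in WT on OP50. The largest of them, *snb-1*, averaged 233 FPKM on PA14 and 173 FPKM in WT on OP50. Single markers differed. Only *unc-119* was called, at a log2 fold change of 1.02. The others were at 0.56 (*egl-3*), 0.43 (*snb-1*), 0.42 (*unc-104*), 0.31 (*snt-1*), 0.11 (*ric-4*), 0.09 (*rgef-1*) and -0.19 (*rab-3*). With each library scaled to 7 neuron genes, as described below, log2 fold changes on PA14 were 0.34 for *ins-17*, 0.22 for *ins-18* and 0.10 for *ins-1*. None of these had an unadjusted p under 0.05 in limma on that scale. Whether neuron content brought about the differences was not tested.

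*ins-37* was the member nearest to a lower call on PA14. It stood at 12.8, 10.3 and 26.3 FPKM on PA14 and 28.9, 27.01 and 23.3 FPKM in WT on OP50, with PA14 replicate 3 inside the OP50 range. The log2 fold change of -0.78 ± 0.35 (SE, unadjusted p = 0.064 in limma) was not called, but it was called lower without PA14 replicate 3 and with median-of-ratios scaling. The 2 genes most abundant in WT on OP50 besides it did not separate, with *ins-27* at 32.0, 21.4 and 56.3 FPKM on PA14 against 58.9, 44.03 and 27.8 FPKM on OP50, and *daf-28* as given above.

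Around the ligands, PA14 brought 1 call in the 45 tested of 46 listed pathway genes, against 8.78% of all genes tested. None of the 16 genes of the receptor and kinase cascade was called, though *daf-2*, which encodes the receptor, averaged 56.9 ± 25.1 FPKM on PA14 and 28.5 ± 9.43 FPKM on OP50 (SD, n = 3 each) with a log2 fold change of 0.94 ± 0.35 (SE, unadjusted p = 0.034 in limma), just under the fold limit. *daf-16* averaged 84.7 ± 14.8 FPKM on PA14 and 55.0 ± 7.41 FPKM on OP50, a log2 fold change of 0.61. *akt-1* averaged 74.3 ± 14.6 FPKM on PA14 and 64.9 ± 11.9 FPKM on OP50 and was not called. None of the 13 genes of peptide processing and release was called either. Among these *egl-21*, a carboxypeptidase that trims peptides, averaged 75.0 ± 3.94 FPKM on PA14 and 45.3 ± 2.23 FPKM on OP50, a log2 fold change of 0.72 ± 0.13 (SE, adjusted p = 0.077 in limma). Of 17 DAF-16 target genes 16 were tested and 1 was called, the metallothionein *mtl-1*, which was at 63.05, 989 and 81.2 FPKM on PA14 and 28.4, 26.5 and 9.32 FPKM in WT on OP50. PA14 replicate 2 was far above the rest. *mtl-1* had a log2 fold change of 3.13 ± 1.06 (SE, adjusted p = 0.21 in limma), and 1.87 without PA14 replicate 2. *sod-3*, a superoxide dismutase much used as a readout of DAF-16, averaged 4.97 ± 3.52 FPKM on PA14 and 5.77 ± 1.33 FPKM on OP50.

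In *egl-44* worms, 17 insulin-like genes were called higher than in WT worms on OP50 and 4 lower. Here too 34 of the 39 passed the filter, with *ins-2*, *ins-8*, *ins-13*, *ins-15* and *ins-39* below it. The background was wide, with 41.4% of 15488 genes called, 17.9% higher and 23.4% lower. By limma's adjusted p under 0.05, 19 members were higher and 4 lower, against 26.3% and 31.5% of all genes. The *egl-44* libraries lay wholly above the WT libraries for 20 members, against 34.1% of all genes tested, and wholly below for 4, against 35.6%. Over the 34 members the log2 fold changes had a median of 1.01, and over all genes tested 0.12. The higher share of all calls was 43.4% with FPKM as deposited, 36.9% with median-of-ratios scaling and 59.2% after quantile normalization, and the members' counts were 16 higher and 4 lower with the first of these alternatives and 21 higher and 3 lower with the other. With any one of the 6 libraries left out, between 17 and 23 members were called.

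*ins-35* (WBGene00002118, chromosome V, 20375536 to 20376302, plus strand, 2 exons), an insulin of the intestine with a role in the dauer decision, changed most. It stood at 364, 432 and 207 FPKM in *egl-44* and 14.3, 7.88 and 7.32 FPKM in WT on OP50, that is 5882 reads in *egl-44* and 181 in WT. On PA14 it was at 12.1, 19.8 and 13.1 FPKM. The lowest *egl-44* library, at 207 FPKM, stood against 19.8 FPKM in the highest WT library on either food. This was a log2 fold change of 5.01 ± 0.35 (SE, adjusted p = 2.2e-04 in limma). In the same libraries the 5 intestinal markers summed to 1625 to 1798 FPKM in *egl-44* and 1156 to 1419 FPKM in WT on OP50. *act-5* was the largest part of these sums. Of the 5, *elt-2* and *ges-1* were called higher in *egl-44*, at log2 fold changes of 1.275 and 1.15. *act-5*, *ifb-2* and *vha-6*, at 0.42, 0.24 and 0.15, were not called. The part of these markers in the result was not tested.

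The ligands *ins-3* and *ins-33* are known for promoting proliferation of the larval germ line, and they differed from each other here. *ins-33* was at 41.6, 51.8 and 62.1 FPKM in *egl-44*, at 4.10, 2.36 and 7.86 FPKM in WT on PA14 and at 9.02, 7.50 and 1.80 FPKM in WT on OP50. Its log2 fold change in *egl-44* was 3.21 ± 0.53 (SE, adjusted p = 0.0032 in limma), with no overlap. *ins-3* did not separate, at 3.72, 4.24 and 3.94 FPKM in *egl-44* and 1.67, 4.45 and 3.29 FPKM in WT on OP50. In the chromosome II cluster, *ins-5* was at 13.8, 18.8 and 9.50 FPKM in *egl-44*, 2.56, 3.84 and 3.99 FPKM in WT on PA14 and 2.52, 0.892 and 3.67 FPKM in WT on OP50. It had a log2 fold change in *egl-44* of 2.43 ± 0.46 (SE, adjusted p = 0.0053 in limma). *ins-4* beside it, with the values given above, had a log2 fold change of 2.15 ± 0.25 (SE, adjusted p = 9.1e-04 in limma). The remaining tested genes of that cluster were not called in *egl-44*. *ins-6* passed the adjusted p (0.017 in limma) at a log2 fold change of 0.90, under the fold limit, and *ins-20* overlapped between *egl-44* and WT.

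The chromosome I cluster stood higher in *egl-44* at 6 of its 7 genes. *ins-27*, already the most abundant in WT, was at 146, 124 and 169 FPKM in *egl-44* and 58.9, 44.03 and 27.8 FPKM in WT on OP50, a log2 fold change of 1.79 ± 0.28 (SE, adjusted p = 0.0027 in limma). *ins-25* was at 6.91, 2.68 and 5.14 FPKM in *egl-44*, 1.62, 3.92 and 0 FPKM in WT on PA14 and 1.32, 1.84 and 0.285 FPKM in WT on OP50. *ins-24* was at 18.7, 15.5 and 11.8 FPKM in *egl-44*, 7.44, 9.12 and 6.68 FPKM in WT on PA14 and 5.82, 6.61 and 5.76 FPKM in WT on OP50. Their log2 fold changes in *egl-44* were 1.77 and 1.25, and in both the *egl-44* and OP50 libraries did not overlap. *ins-29* was at 12.3, 7.45 and 18.1 FPKM in *egl-44*, 6.93, 6.46 and 11.2 FPKM in WT on PA14 and 5.20, 4.98 and 4.15 FPKM in WT on OP50. *ins-30* was at 17.98, 23.96 and 11.4 FPKM in *egl-44*, 3.67, 4.66 and 6.49 FPKM in WT on PA14 and 8.44, 9.18 and 4.65 FPKM in WT on OP50. *ins-26* was at 5.77, 7.996 and 7.98 FPKM in *egl-44*, 4.53, 3.03 and 4.33 FPKM in WT on PA14 and 3.81, 2.76 and 2.18 FPKM in WT on OP50. These 3 genes had log2 fold changes in *egl-44* of 1.23, 1.20 and 1.19, all called. The exception was *ins-28* at the edge of the cluster, which stood at 15.96, 13.5 and 18.3 FPKM in *egl-44*, 15.02, 15.8 and 23.0 FPKM in WT on PA14 and 17.1, 17.0 and 14.4 FPKM in WT on OP50. None of the 7 was called on PA14. In *egl-44*, the call of *ins-29* was lost without *egl-44* replicate 3. That of *ins-30* was lost without *egl-44* replicate 2 or without OP50 replicate 3.

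Of the *ins-11* cluster, both tested genes were higher in *egl-44*. *ins-11* had a log2 fold change of 1.98 ± 0.42 (SE, adjusted p = 0.0077 in limma). *ins-12* was at 16.23, 7.79 and 4.81 FPKM in *egl-44* against 1.69, 4.18 and 1.60 FPKM in WT on OP50, with a log2 fold change of 1.70 and the *egl-44* replicates widely spread. *ins-14* was at 4.75, 6.21 and 4.42 FPKM in *egl-44*, 2.01, 1.56 and 2.88 FPKM in WT on PA14 and 0.980, 1.90 and 1.59 FPKM in WT on OP50, a log2 fold change in *egl-44* of 1.52. *ins-9* was at 2.83, 3.29 and 5.43 FPKM in *egl-44*, 0.796, 0.687 and 2.32 FPKM in WT on PA14 and 1.46, 2.07 and 0.699 FPKM in WT on OP50, a log2 fold change in *egl-44* of 1.21. The antagonists *ins-1* and *ins-18* were also called, at log2 fold changes of 1.03 and 1.19, as was *ins-17*, at 1.14. *ins-1* was not called with median-of-ratios scaling, at 0.92, or with a pseudocount of 1. Its call was also lost without *egl-44* replicate 2 or without OP50 replicate 2, and that of *ins-18* without *egl-44* replicate 2. *ins-9* lost its call without *egl-44* replicate 3 or without OP50 replicate 3. The agonist *daf-28* had a log2 fold change of 0.91 ± 0.47 (SE, adjusted p = 0.13 in limma), with *egl-44* replicate 2 far above the other libraries and replicate 3 inside the OP50 range.

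Among the genes lower in *egl-44*, *ins-37* (WBGene00002120, chromosome II, 13835101 to 13836107, minus strand, 2 exons) changed most. It was at 0.219, 0.286 and 2.57 FPKM in *egl-44* and 28.9, 27.01 and 23.3 FPKM in WT on OP50, that is 25 reads in *egl-44* and 653 in WT. The log2 fold change was -4.48 ± 0.56 (SE, adjusted p = 0.0011 in limma), and *egl-44* replicate 3, which also held the most germ line, oocyte, sperm and yolk transcripts of the *egl-44* libraries, was the highest of the *egl-44* values. *ins-31* had no read in any *egl-44* library, against 152 reads in WT on OP50. The mean of WT on OP50, 4.74 FPKM, was 16.7 times the *egl-44* floor of 3 reads per library. This compares means only, and the OP50 libraries ran from 1.79 to 7.27 FPKM. *ins-23* was at 0.379, 0 and 0.634 FPKM in *egl-44* and 0.781, 3.17 and 2.74 FPKM in WT on OP50, a log2 fold change of -1.65 ± 0.50 (SE, adjusted p = 0.028 in limma). *ins-32*, the last of the called genes, rested on 3 reads in *egl-44* and 13 in WT on OP50, at 0, 0 and 0.586 FPKM in *egl-44*, 0, 1.15 and 0.398 FPKM in WT on PA14 and 0.904, 1.05 and 0.585 FPKM in WT on OP50. It was tested in 4 of the fits that left out 1 library and called in 2 of them, and it was not called after quantile normalization. *ins-34* was below every OP50 library without being called, at 0.134, 0.350 and 0.299 FPKM in *egl-44* and 0.690, 0.641 and 4.92 FPKM in WT on OP50. *ins-7* overlapped between *egl-44* and WT, with a log2 fold change of -0.76 ± 0.34 (SE, adjusted p = 0.092 in limma).

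**Figure D4:**
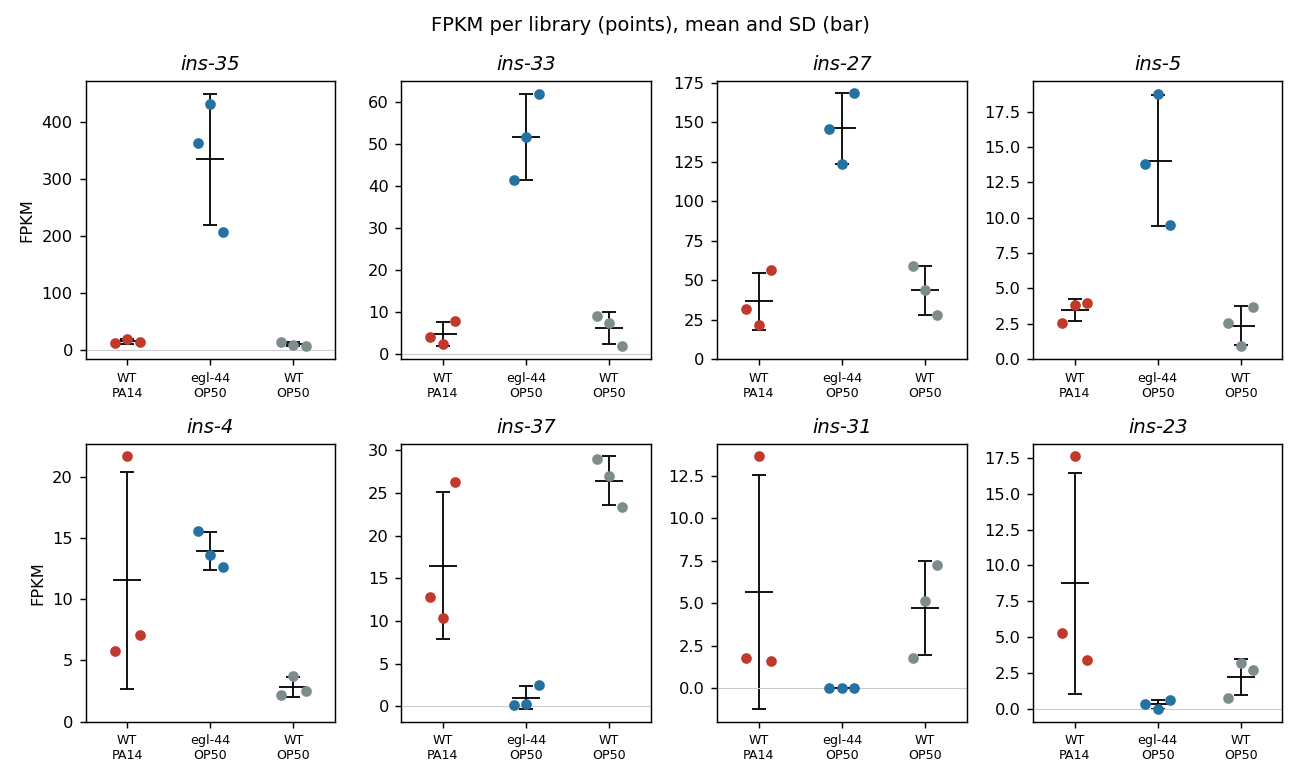
FPKM of 8 insulin-like genes in each library of WT on PA14, *egl-44* on OP50 and WT on OP50 (points), with the group mean and SD (bar, n = 3). The *egl-44* points of *ins-35*, *ins-33*, *ins-27*, *ins-5* and *ins-4* lie above all OP50 points, and those of *ins-37*, *ins-31* and *ins-23* lie below them.

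Because many of these ligands are made in neurons, and neuron markers were higher in *egl-44* while germ line markers were lower, the fit was repeated with each library scaled to the geometric mean of 7 neuron genes, an alternative chosen after seeing the markers. On that scale 10 members were called in *egl-44*, 4 higher and 6 lower, against 664 higher and 6630 lower of all 15488 genes tested, the median log2 fold change over all genes was -0.75, and 9.10% of all genes called were higher. *ins-35* (4.10), *ins-33* (2.32), *ins-5* (1.60) and *ins-4* (1.30) were still called higher relative to neuron markers. *ins-27*, at 0.86, *ins-11*, at 1.10, and the other 11 members called higher on the FPKM scale were not. *ins-37*, *ins-31*, *ins-23* and *ins-32* were called lower on both scales, and *ins-7*, at -1.65, and *ins-34*, at -1.84, were added to them. On PA14 the neuron scaling left *ins-4*, *ins-11*, *ins-19* and *ins-20* called higher, added *ins-37* as lower, and 39.05% of all genes called were higher.

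**Figure D5:**
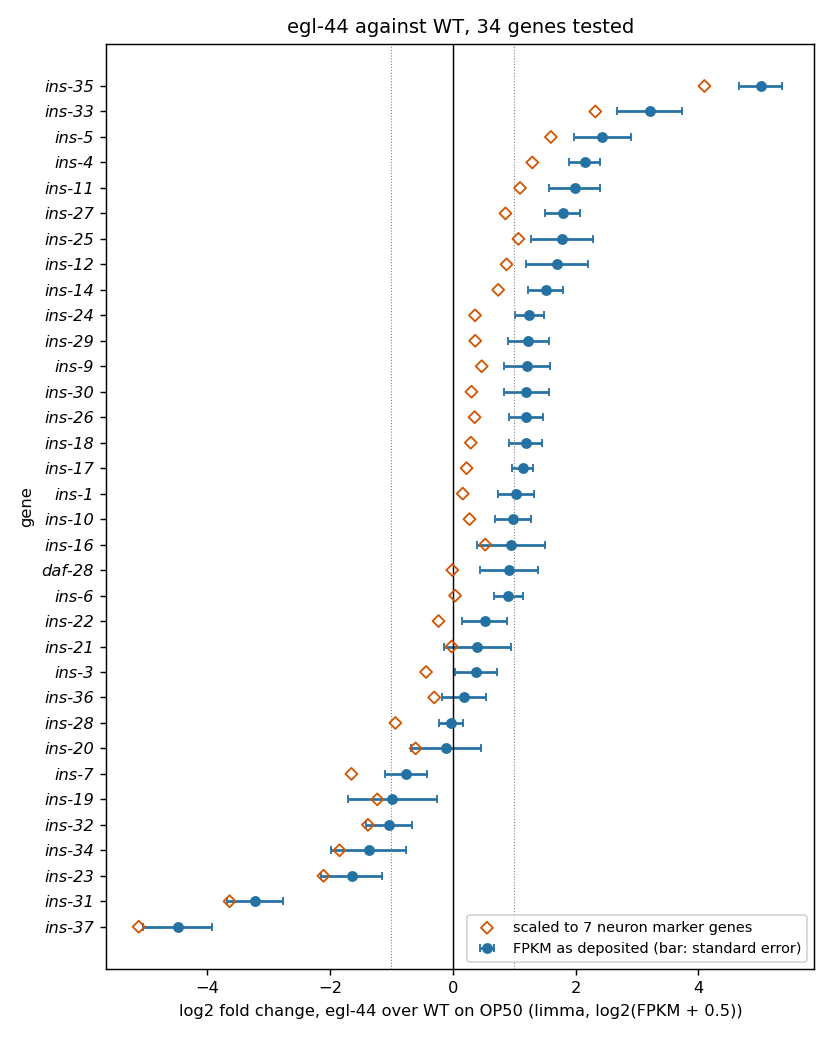
Log2 fold changes of the 34 tested insulin-like genes, *egl-44* over WT on OP50, from limma on log2(FPKM + 0.5) with FPKM as deposited (filled circles, bars are SE) and after scaling to 7 neuron genes (open diamonds); dotted lines mark a 2-fold change. Scaling shifts the genes lower, and *ins-35*, the highest, is at 5.01 as deposited and 4.10 after scaling, while *ins-37*, the lowest, is at -4.48 as deposited and -5.11 after scaling.

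Calls among the genes around the ligands in *egl-44* are to be read against 41.4% of all genes tested, 17.9% higher and 23.4% lower. Of 13 processing and release genes 5 were called higher and none lower, namely *sbt-1*, *egl-3*, *ida-1*, *egl-21* and *kpc-1*, with log2 fold changes of 1.27, 1.20, 1.16, 1.15 and 1.13, and after neuron scaling none of these 5 was called, at 0.22 to 0.34. *egl-3*, the proprotein convertase that cleaves neuropeptide precursors, averaged 105 ± 24.8 FPKM in *egl-44* and 44.9 ± 1.81 FPKM in WT on OP50 (SD, n = 3 each), and is itself among the 8 neuron markers. *unc-31*, needed for dense-core vesicle release, averaged 6.29 ± 2.30 FPKM in *egl-44* and 3.66 ± 0.260 FPKM in WT and was not called. Of the 16 receptor and kinase genes 2 were called higher and 3 lower, both below the shares of all genes. *ist-1*, an insulin receptor substrate, and *akt-2* were higher, with log2 fold changes of 1.51 and 1.46, and neither was called after neuron scaling. Among the 3 lower ones, *age-1* and *aap-1* (the adaptor subunit of the PI3 kinase) had log2 fold changes of -1.03 and -1.14, and were called lower after neuron scaling too. The receptor *daf-2*, at 26.4 ± 2.57 FPKM in *egl-44* and 28.5 ± 9.43 FPKM in WT, was not called, and neither were *daf-16*, at 57.8 ± 16.08 FPKM in *egl-44* and 55.0 ± 7.41 FPKM in WT, and *akt-1*, at 59.8 ± 2.54 FPKM in *egl-44* and 64.9 ± 11.9 FPKM in WT. After neuron scaling *akt-1* (-1.03), *par-5* (-1.34), the heat shock factor *hsf-1* (-1.84) and the DAF-16 cofactor *smk-1* (-1.40) of this list and *bli-4* (-1.11) of the processing genes were called lower, on a scale where 6630 of the 15488 genes tested were. Of 17 DAF-16 targets 6 were called higher and 1 lower. The higher ones were *mtl-1*, *ftn-1* (a ferritin), *dod-3*, *sod-3*, *ctl-2* (a catalase) and *icl-1*, with log2 fold changes of 3.75, 3.53, 2.96, 2.64, 1.20 and 1.08. The lower one was *lea-1*, at -1.06. *ftn-1* was at 86.8, 34.6 and 56.7 FPKM in *egl-44* and 0.968, 2.15 and 28.9 FPKM in WT on OP50. *dod-3* was at 42.7, 100 and 161 FPKM in *egl-44* and 5.45, 3.41 and 63.7 FPKM in WT on OP50. The SE of both was 1.06, and *dod-3* and *lea-1* overlapped between *egl-44* and WT. After neuron scaling *mtl-1*, *ftn-1* and *sod-3* were still called higher, at 2.83, 2.68 and 1.75, and *dod-3* (2.05), *ctl-2* (0.28) and *icl-1* (0.14) were not. *lea-1* was called lower on both scales.

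Set side by side, with the OP50 libraries shared, *ins-4* had log2 fold changes of 1.65 on PA14 and 2.15 in *egl-44*. *ins-11* had 1.71 on PA14 and 1.98 in *egl-44*. *ins-19* had 3.64 on PA14, and in *egl-44* it held 3 reads against 22 in WT on OP50 and was not called. *ins-23* had 1.59 on PA14, not called, and -1.65 in *egl-44*. *ins-35* had 0.61 on PA14, not called, and 5.01 in *egl-44*. The members left at the bottom of the range were *ins-8*, *ins-13*, *ins-15*, *ins-21* and *ins-39*. *ins-39* was at 0.136, 0.235 and 0 FPKM in WT on PA14, 0.108, 0.281 and 0 FPKM in *egl-44* and 0 in all 3 WT libraries on OP50, which does not show that it was absent at this depth. The highest value of *ins-8* in any library was 2.33 FPKM, in PA14 replicate 1, that of *ins-21* was 1.21 FPKM, that of *ins-15* 0.801 FPKM and that of *ins-13* 0.564 FPKM, the last 3 in *egl-44* libraries. *ins-10* had group means of 2.01 FPKM on PA14, 2.66 FPKM in *egl-44* and 1.08 FPKM in WT on OP50. *ins-16* had means of 0.632 FPKM on PA14, 1.35 FPKM in *egl-44* and 0.356 FPKM in WT on OP50, and *ins-36* of 1.66 FPKM on PA14, 0.806 FPKM in *egl-44* and 0.584 FPKM in WT on OP50.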

How the data were processed

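The authors deposited 1 file per library with FPKM values for 20541 genes, made by the authors or their sequencing company, with replicates not pooled. The submitters' processing notes list Bowtie2 2.2.3, TopHat2 2.0.12, HTSeq 0.6.1, DESeq 1.18.0 and the build WBcel235, without role or order. The sources used here do not give the strandedness or the handling of reads shared between genes. Symbols and positions came from reference tables of WBcel235, which gave a symbol for 19587 identifiers.

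Each comparison was fitted on its 6 libraries with limma 3.58.1 in R 4.3.3 (lmFit, eBayes with trend). The values were log2(FPKM + 0.5), genes averaging under 0.5 FPKM were left out, and adjusted p-values were taken over all genes tested. Fold changes are on this scale, which understates those of low genes. An unadjusted p under 0.05 with a fold over 2 made a call. With 3 libraries a group, exact permutation tests cannot go below p = 0.1 and are not given for single genes. Whole reads were recovered within 0.01 for 99.3% of the 19711 genes above 0, including all 39 members, and an alternative ran limma voom on them. Alternatives were pseudocounts of 0.1 and 1, other filters, median-of-ratios and quantile scaling, one fit of the 9 libraries, the replicate number as a block, and leaving out each library. Scaling to neuron markers was added after the data were seen. The steps were tested on simulated data.

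The members, the pathway and marker lists and the tests were chosen with earlier results of these data known. Values in every library were given for members called in either comparison, for the 10 with the highest mean FPKM and for those with well known roles; *ins-2* and *ins-34* were added after their values were seen. Of the pathway lists, called genes were named (up to 10 a list) except 1, whose values are not reported here, with *daf-2*, *age-1*, *akt-1*, *daf-16*, *egl-3*, *egl-21*, *unc-31* and *sod-3*. Python 3.11.15, numpy 2.4.6, pandas 2.3.3 and matplotlib 3.10.9 were used. No sequence is printed.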

Additional observations from a re-analysis of the deposited data

How the results depend on the processing

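On PA14, 5 called members became 8 in one fit of the 9 libraries, 0 at an adjusted p under 0.05 (limma, with 9 at an unadjusted p under 0.05), and 4 to 9 with 1 library left out, the 9 without PA14 replicate 3. The 1 pathway gene called on PA14 became 3 with a pseudocount of 0.1, 2 with median-of-ratios scaling, 2 in one fit of the 9 libraries, 3 scaled to neuron markers, 0 at an adjusted p under 0.05, and 1 to 6 with 1 library left out. In *egl-44*, 21 called members became 10 scaled to neuron markers and 17 called pathway genes became 28 at an adjusted p under 0.05, and with 1 library left out these counts were 17 to 23 and 14 to 20. The counts over all genes tested moved too. On PA14 they went from 1102 higher and 281 lower to 1268 and 295 in one fit of the 9 libraries. With 1 library left out they ran from 749 to 1602 higher and from 144 to 993 lower. In *egl-44*, 41.4% of all genes were called and 57.8% passed an adjusted p under 0.05 in limma. With 1 library left out, 2470 to 2921 of them were called higher and 3318 to 3924 lower. The cause of these changes was not tested. The main fits did not pair the samples by replicate number. Correlations of deviations between same-numbered libraries were -0.19, -0.24 and -0.55 for PA14 and 0.08, 0.06 and 0.09 for *egl-44*. *egl-44* replicates 2 and 3 correlated best with the OP50 library of their own number, and *egl-44* replicate 1 and the PA14 libraries did not. The highest values on PA14 were 0.49, for PA14 replicate 3 with OP50 replicate 1, and 0.36, for PA14 replicate 2 with OP50 replicate 3. With 3 libraries a group these values cannot settle whether the numbers pair the samples. With the replicate block, 6 members and 2 pathway genes were called on PA14 and 20 members in *egl-44*. Over all genes tested, 994 were then called higher and 229 lower on PA14, and 2857 higher and 3608 lower in *egl-44*.

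No called gene changed sign under the alternatives run. Of the uncalled genes named by the rule, signs turned on PA14 for *ins-28* (-0.12 with median-of-ratios, -0.077 with quantile and -0.19 with neuron scaling), *akt-1* (-0.062 with median-of-ratios and -0.13 with neuron scaling) and *unc-31* (-0.11 with median-of-ratios, -0.17 with quantile and -0.17 with neuron scaling). In *egl-44* they turned for *daf-16* (-0.075 with median-of-ratios and -0.88 with neuron scaling), *daf-28* (-0.0061) and *unc-31* (-0.20) with neuron scaling, and *ins-28* (0.32), *daf-2* (0.26) and *akt-1* (0.020) with quantile normalization. Signs of other uncalled members turned under scaling too. On PA14 these were *ins-3* (-0.047 with median-of-ratios, -0.15 with quantile and -0.11 with neuron scaling) and *ins-25* (-0.00081 with median-of-ratios and -0.037 with quantile). In *egl-44* they were *ins-3* (-0.43), *ins-21* (-0.018), *ins-22* (-0.23) and *ins-36* (-0.30) with neuron scaling and *ins-20* (0.33) with quantile normalization. With 1 library left out, log2 fold changes on PA14 ran between -0.28 and 0.28 for *ins-6*, -0.66 and 0.027 for *ins-27*, -0.88 and 0.098 for *sod-3*, -0.066 and 0.24 for *ins-28*, -0.55 and 0.082 for *daf-28*, and -0.87 and 0.16 for *ins-33*. In *egl-44* they ran between -0.17 and 0.21 for *daf-16*, -0.13 and 0.080 for *ins-28*, -0.20 and 0.18 for *daf-2*, and -0.18 and 0.043 for *akt-1*. Other uncalled members also crossed 0 with 1 library left out. The PA14 ranges were -1.09 to 0.29 for *ins-31*, -0.54 to 1.03 for *ins-25*, -0.16 to 0.43 for *ins-3* and -0.55 to 0.090 for *ins-9*. Those in *egl-44* were -0.54 to 0.41 for *ins-20* and -0.18 to 0.41 for *ins-36*. Depth limited the members with under 15 reads in a group of 3 libraries, where a few reads move the fold change.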
